A study of Mus musculus with 12 samples.

Results

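The genes described here flank Hrc on mouse chromosome 7. Hrc itself lies at 45335269 to 45338973 on the plus strand in the genome build GRCm38.p6. They were taken as every gene of the deposited table on the chromosome of Hrc whose start lies within 1000000 bases of the Hrc start and whose mean was 10 or more reads over the 12 libraries. The window held 100 genes with Hrc counted. Of these, 8 were left out by name, among them Hrc, Dbp, Mybpc2, Kcnj11 and Abcc8, and 25 fell under the read minimum. The remaining 67 genes, of 17379 in the table, comprised 40 before and 27 after Hrc. At the edges of the rule, Il4i1 entered with a mean of 12.5 reads and Ntf5 missed with 8 reads. Syt3 and Ush1c were the outermost genes kept, at -951170 and 860081 bases from the Hrc start, while Shank1 at -1027370 and Kcnc1 at 1061188 bases lay outside.

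Heart mRNA was sequenced from 12 mice of C57BL background aged 6 months, with 3 mice in each of 4 groups. HRC variant mice were heterozygous for S96A (C57BL/HRCS96A, all female), and nontransgenic mice (C57BL/WT) were 2 males and 1 female. Compound mice carried the heterozygous variant together with the homozygous 25 bp deletion in MYBPC3 (C57BL/MYBPC3[delta]25bp+HRCS96A, all female), and MYBPC3 deletion mice carried the homozygous deletion alone (C57BL/MYBPC3[delta]25bp, 2 males and 1 female). Variant carriers are thus the 6 female HRC variant and compound mice, and non-carriers are 4 males and 2 females. Sex and the variant are therefore partly confounded, and sex was a term in the model. As no carrier is male, the fitted difference of carriers and non-carriers rests mainly on the 2 female non-carriers for the non-carrier level. The male libraries inform the sex term and the spread. The labels do not state how the variant and the deletion were introduced, at which genomic position, in how many founder lines or under which promoter. No source states more of the replicates than their numbers, and the p-values therefore reflect the variation among these libraries, which may be technical in part.

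Hrc encodes a histidine-rich protein that binds calcium inside the sarcoplasmic reticulum, the calcium store of heart muscle cells. Genes that lie close together on a chromosome are inherited together with an allele placed at that position, and neighbours can also share regulatory DNA, so the expression of the neighbours is a usual check beside an altered locus. The region is gene-dense and mixes housekeeping genes of transcription, metabolism and membrane traffic with ion channel genes and genes of immune cells.

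The libraries held between 15615182 and 20581197 reads. The 8 atrial muscle markers, among them the atrial myosin light chain Myl7 and the atrial peptide Nppa, summed to 9343, 3187 and 335 counts per 1000000 reads (CPM) in HRC variant libraries 1 to 3 and 3766 to 9580 CPM in nontransgenic libraries. They summed to 282 to 618 CPM in compound libraries and 3868 to 6710 CPM in MYBPC3 deletion libraries, so compound libraries lay below every MYBPC3 deletion library. Heart muscle markers summed to 73084 to 89036 CPM in carriers and 69856 to 104203 CPM in non-carriers. In whole heart, fewer cells of a type and less RNA per cell cannot be told apart.

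Measured per gene length in fragments per kilobase and 1000000 reads (FPKM), the 67 flanking genes spanned a wide range of levels. Their median was 14.3 FPKM, against 6.43 FPKM for all genes tested, with 39 at 10 FPKM or more and 7 under 1 FPKM. Hrc itself averaged 480 FPKM. Ftl1, the light chain of the iron store ferritin, was the highest of the flanking genes at 649 ± 168 FPKM (SD, n = 12). It ranged from 462 to 1004 FPKM, and no other member reached its lowest value. Next came Kdelr1, a receptor that returns proteins to the endoplasmic reticulum, at 117 ± 10.6 FPKM, and Ptov1 at 108 ± 9.76 FPKM. These neighbours in the order did not differ beyond their spread. The lowest was Fut2, a fucosyltransferase, at 0.268 ± 0.157 FPKM.

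None of the 67 genes passed an adjusted p of 0.05 between variant carriers and non-carriers, where the background over the 13849 genes tested was 0% by edgeR's quasi-likelihood test. At an unadjusted p under 0.05, 2 of the 67 were counted (2.99%), Tead2 with a lower and Fut2 with a higher value, against a background of 4.92%. DESeq2 called none of the 67 at an adjusted p under 0.05 and 0.116% of all genes. The median log2 fold change of the flanking genes, carriers over non-carriers, was -0.03, with quartiles of -0.13 and 0.09, against a median of 0.01 over all genes tested. Of the 67 fitted values, 29 lay above 0 and 38 below. In no flanking gene did all carriers lie above or all lie below every non-carrier, against a background of 0.412% of all genes.

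**Figure D1:**
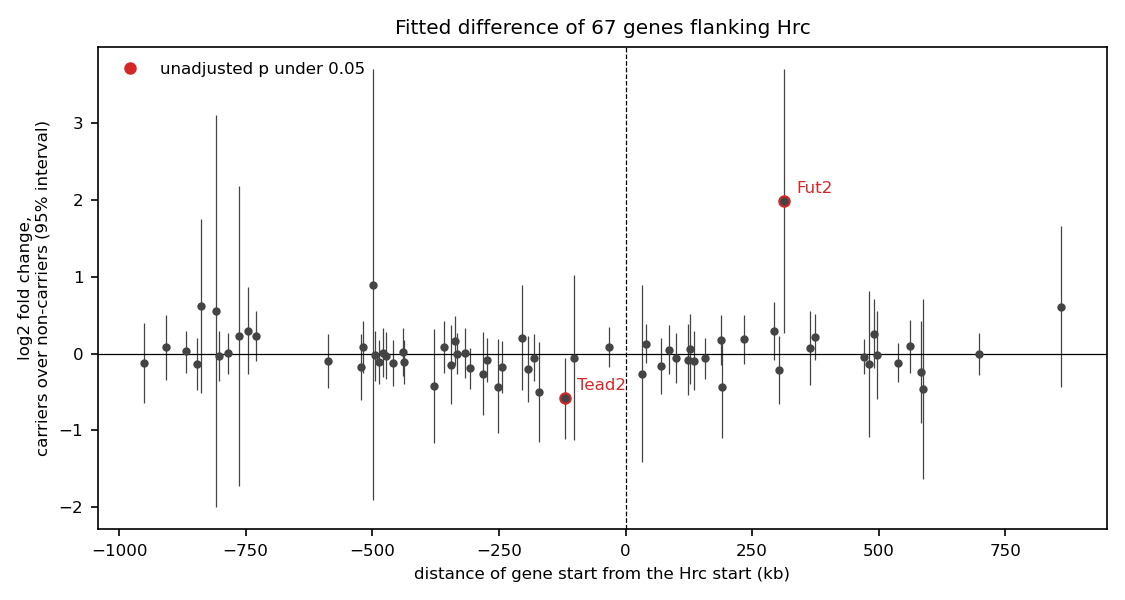
Log2 fold change of each of the 67 flanking genes, carriers over non-carriers, with its 95% interval (vertical lines) against the distance of its start from the Hrc start in kb. Values lie about 0 on both sides of Hrc; only Tead2 (-0.58) and Fut2 (1.99), in red, had an unadjusted p under 0.05.

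The precision of these values bounds the change of each gene taken singly. The 95% interval of the fold change, carriers over non-carriers, lay within 2-fold in both directions for 52 of the 67 genes (77.6%) and within 1.5-fold for 40 (59.7%). Over all genes tested the shares were 76.2% and 53.6%. The intervals followed depth, since 51 of the 56 genes with a mean of 100 or more reads lay within 2-fold, as did 1 of the other 11. With sex in the model, the non-carrier level behind these intervals rests mainly on the 2 female non-carriers. A p that misses the threshold does not show that the groups were alike.

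By distance, the fold changes of carriers over non-carriers had medians near 0. The 6 genes within 100 kb had a median of -0.00 and none had an unadjusted p under 0.05. The 47 genes within 500 kb had a median of -0.05, and the 20 farther out had 0.02. Beyond the window, genes of chromosome 7 from 1 to 5 Mb of Hrc had a median of 0.07 (41 genes). Those from 5 to 10 Mb had 0.03 (22 genes), those from 10 to 20 Mb -0.01 (174 genes) and those over 20 Mb away -0.01 (761 genes). An unadjusted p under 0.05 was found in 0%, 13.6% (3 genes), 2.87% and 4.2% of these bands in turn, against a background of 4.92%. The 31 genes chosen by the same limits around Mybpc3, which lies on another chromosome, had a median of 0.02. In compound over MYBPC3 deletion, the 6 genes within 100 kb had a median of 0.13, with 5 above 0, and the 47 within 500 kb had -0.04. In HRC variant over nontransgenic both medians were -0.02. The difference between these comparisons had an unadjusted p under 0.05 in 2 of the 6 genes within 100 kb (33.3%), Kcna7 and Gys1, against a background of 8.54%, and an adjusted one in none.

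Of the genes nearest to Hrc, Trpm4 varied least. Trpm4, a calcium-activated cation channel gene of the heart conduction system at 45302621 to 45334070, had 25.1, 23 and 25.5 CPM in HRC variant libraries and 24, 27.3 and 26 CPM in nontransgenic libraries. It had 29.2, 27.9 and 26 CPM in compound libraries and 25.2, 21.4 and 23.1 CPM in MYBPC3 deletion libraries. All compound libraries lay above the MYBPC3 deletion libraries, while the other pair of groups overlapped. Its log2 fold change, carriers over non-carriers, was 0.09 (SE 0.12, adjusted p = 1 by edgeR's quasi-likelihood test), and its coefficient of variation over all 12 libraries, 8.8%, was the smallest of the 67.

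On the other side of Hrc, Lin7b, a scaffold protein of cell junctions at 45367891 to 45370841, was low, at 0.388 to 0.889 CPM in carriers and 0.536 to 1.4 CPM in non-carriers. Snrnp70, a protein of the U1 splicing particle at 45376454 to 45395742, had 48.2, 52.2 and 52 CPM in HRC variant libraries and 52.8, 45.7 and 45.9 CPM in nontransgenic libraries. Its compound libraries had 40, 41.2 and 47 CPM and its MYBPC3 deletion libraries 44.1, 38.1 and 39.6 CPM. Both pairs of groups overlapped, and the log2 fold change, carriers over non-carriers, was 0.13 (SE 0.12). Ruvbl2, an ATPase of chromatin remodelling complexes, had 22.3 to 25.8 CPM in carriers and 23.3 to 36.5 CPM in non-carriers. Its log2 fold change was 0.05 (SE 0.15).

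Kcna7, a voltage-gated potassium channel gene at 45405960 to 45411382, had 9.05, 10.1 and 12.4 CPM in HRC variant libraries and 12.5, 13 and 12.8 CPM in nontransgenic libraries. It was the 1 flanking gene (1.49%) in which these groups did not overlap, against a background of 7.94% of all genes. Its compound libraries had 11.1, 11.4 and 12.2 CPM and its MYBPC3 deletion libraries 9.03, 7.61 and 11.7 CPM, which overlap. In HRC variant over nontransgenic the log2 fold change was -0.45 (SE 0.21, adjusted p = 0.797 by edgeR), and in compound over MYBPC3 deletion it was 0.14 (SE 0.21).

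Gys1, the muscle glycogen synthase gene at 45434839 to 45456617, had 148, 198 and 223 CPM in HRC variant libraries and 197, 215 and 239 CPM in nontransgenic libraries. In compound libraries it had 243, 216 and 231 CPM, and in MYBPC3 deletion libraries 161, 132 and 196 CPM. The HRC variant and nontransgenic libraries overlapped, while every compound library lay above every MYBPC3 deletion library. The difference between the log2 fold changes of the variant with and without the deletion was 0.71 (SE 0.21), the smallest p of the flanking genes in that comparison, with an unadjusted p of 0.00578 and an adjusted p of 0.517 by edgeR. Gys1 overlaps Ruvbl2 on the other strand, and whether the counting used strand is not stated.

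In HRC variant against nontransgenic mice, 3 of the 67 genes (4.48%) had an unadjusted p under 0.05, against a background of 6.23%, and none an adjusted p under 0.05 (background 0%). The median log2 fold change was -0.01, against 0.00 over all genes. Prr12, a proline-rich nuclear protein, had 49.7, 48.8 and 47.8 CPM in HRC variant libraries and 46.1, 57.5 and 65.2 CPM in nontransgenic libraries, which overlap. Its log2 fold change was -0.46 (SE 0.15, adjusted p = 0.683 by edgeR), and Gys1 had -0.41 (SE 0.18, adjusted p = 0.791). Ap2a1, a subunit of the clathrin adaptor AP-2, had -0.34 (SE 0.16).

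Fut2 had 0.643, 1.41 and 1.61 CPM in HRC variant libraries and 1.07, 0.924 and 0.0974 CPM in nontransgenic libraries. In compound libraries it had 0.995, 0.505 and 0.168 CPM, and in MYBPC3 deletion libraries 0.758, 0.951 and 0.319 CPM. The groups overlapped in both pairs, and the lowest value of each non-carrier group was its only female. In carriers over non-carriers its log2 fold change was 1.99 (SE 0.80, adjusted p = 0.955 by edgeR), although the plain means were 0.889 CPM in carriers and 0.687 CPM in non-carriers. Without the sex term the log2 fold change was 0.27 (SE 0.57). Among female libraries alone it was 2.17, in a fit that leaves 1 library in each non-carrier group. That fit is no separate check, since the value with the sex term rests mainly on the same female non-carriers. Fut2 has close relatives nearby that could share reads.

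In compound against MYBPC3 deletion mice, again no flanking gene passed an adjusted p of 0.05 (background 0%). An unadjusted p under 0.05 was found for 6 of the 67 (8.96%), against a background of 5.73%. Myh14 and Bcat2 had higher and Rcn3, Slc17a7, Tead2 and Plekha4 lower values in compound hearts. The median log2 fold change was -0.01, against 0.01 over all genes. The groups did not overlap in 27 genes (40.3%), against a background of 25.1%. The compound libraries were lower in 19 of them (28.4%, background 13.7%) and higher in 8 (11.9%, background 11.5%). Unlike the fitted values, these CPM are not adjusted for sex. All compound libraries were female, and MYBPC3 deletion 1 and 2 were male, so sex and the variant cannot be told apart in these counts.

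Slc17a7, the vesicular glutamate transporter VGLUT1 gene at 45163921 to 45176139, had 44, 33.3 and 43.6 CPM in compound libraries and 95.9, 89.7 and 88.4 CPM in MYBPC3 deletion libraries. It had 155, 93.1 and 56.9 CPM in HRC variant libraries and 118, 166 and 91.5 CPM in nontransgenic libraries. Every compound library lay below all the other libraries, while HRC variant and nontransgenic libraries overlapped. The log2 fold change, compound over MYBPC3 deletion, was -0.96 (SE 0.36, adjusted p = 0.862 by edgeR), and HRC variant over nontransgenic it was -0.05 (SE 0.38). The difference between them was -0.91 (SE 0.43, adjusted p = 0.606).

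Tead2, a TEAD transcription factor of the Hippo pathway at 45215753 to 45233636, had 6.69, 6.9 and 6.77 CPM in compound libraries and 10, 12.2 and 12.1 CPM in MYBPC3 deletion libraries. In HRC variant libraries it had 14.6, 7.01 and 7.43 CPM, and in nontransgenic libraries 9.53, 8.17 and 12.1 CPM. HRC variant 1 was the highest of all 12 libraries, and the other carriers lay below every non-carrier. The log2 fold change was -0.95 in compound over MYBPC3 deletion (SE 0.31, adjusted p = 0.862 by edgeR) and -0.58 in carriers over non-carriers (SE 0.24, adjusted p = 0.955). Its deposited span overlaps the end of Cd37 on the other strand.

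Rcn3, a calcium-binding protein of the endoplasmic reticulum at 45082914 to 45092257, had 42.4, 40.3 and 38.4 CPM in compound libraries and 89.3, 82.1 and 59.6 CPM in MYBPC3 deletion libraries. Its HRC variant libraries had 108, 47.8 and 46.2 CPM and its nontransgenic libraries 71.5, 64.9 and 80.1 CPM. As for Tead2, HRC variant 1 was the highest library and the other carriers lay below all non-carriers. Between compound and MYBPC3 deletion libraries its log2 fold change was -0.84 (SE 0.36, adjusted p = 0.862 by edgeR). Rcn3 overlaps Fcgrt on the other strand, so reads of the pair may not be told apart.

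Plekha4, a lipid-binding pleckstrin homology domain protein at 45526310 to 45554229, had 4.64, 4.26 and 5.2 CPM in compound libraries and 7.71, 8.31 and 7.71 CPM in MYBPC3 deletion libraries. The log2 fold change was -0.87 (SE 0.38, adjusted p = 0.862 by edgeR). Myh14, a nonmuscle myosin heavy chain gene at 44605803 to 44678235, went the other way, with 146, 146 and 128 CPM in compound libraries and 105, 84.9 and 104 CPM in MYBPC3 deletion libraries. Its log2 fold change was 0.42 (SE 0.18, adjusted p = 0.862). Bcat2, the mitochondrial branched-chain aminotransferase, was named after its values were seen and had 0.40 (SE 0.18, adjusted p = 0.862).

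**Figure D2:**
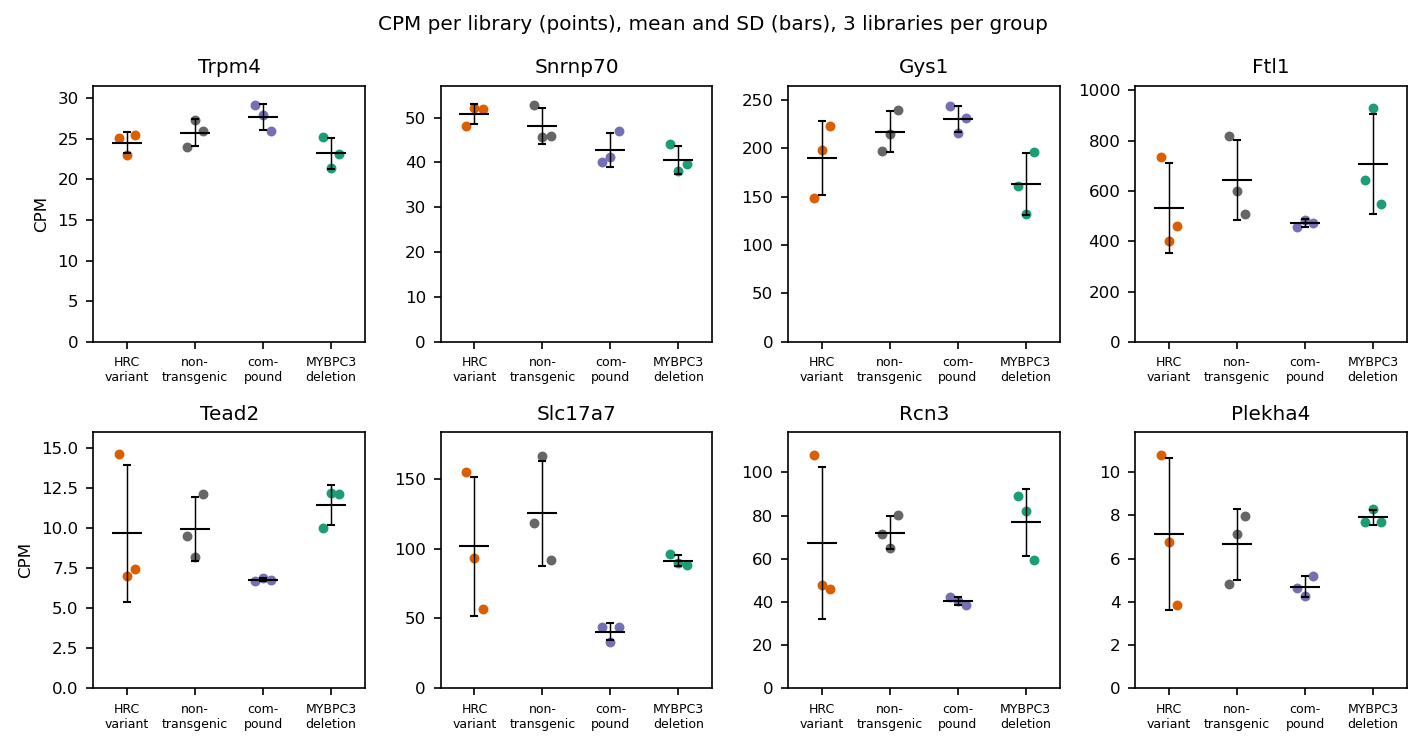
CPM per library (points), with the mean and SD of 3 libraries (bars), of 8 flanking genes in HRC variant, nontransgenic, compound and MYBPC3 deletion libraries. Trpm4 and Snrnp70 vary little. Ftl1, Tead2, Slc17a7, Rcn3 and Plekha4 have compound libraries below all MYBPC3 deletion libraries, while Trpm4 and Gys1 have them above. HRC variant 1 lies apart from HRC variant 2 and 3 in Tead2 (14.6 CPM) and Rcn3 (108 CPM).

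Beside these values, the summed atrial markers were also lower in every compound library than in every MYBPC3 deletion library. The same held for the 5 fibroblast markers, which summed to 1153 to 1222 CPM in compound libraries and 1697 to 1862 CPM in MYBPC3 deletion libraries. The 7 macrophage markers summed to 211 to 242 CPM in compound libraries and 295 to 378 CPM in MYBPC3 deletion libraries. Smooth muscle markers summed to 181 to 334 CPM and 405 to 1709 CPM, and the scarce skeletal muscle markers to 1.05 to 1.07 CPM and 1.22 to 1.97 CPM. Summed markers of heart muscle, endothelium, T cells and B cells overlapped between these groups. The part of any cell type in the values of the flanking genes was not tested. With the atrial marker level of each library as a further term, no flanking gene had an unadjusted p under 0.05 in compound against MYBPC3 deletion, against a background of 2.27%. The log2 fold change of Slc17a7 was then 0.03 (SE 0.24), that of Rcn3 -0.21 (SE 0.39), that of Tead2 -0.52 (SE 0.39) and that of Plekha4 0.12 (SE 0.33). Since the compound and MYBPC3 deletion libraries did not overlap in the summed atrial markers, that term and the groups can hardly be told apart. Without HRC variant 1, 11 of the 67 genes (16.4%) had an unadjusted p under 0.05 in carriers against non-carriers, against a background of 10%, and none an adjusted one (background 0.27%). Without the sex term, the count in compound against MYBPC3 deletion was 15 (22.4%), against a background of 14.5%.

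The authors' deposited table compares the same pairs of groups with DESeq2. For compound over MYBPC3 deletion, the authors' deposited table gives a q-value under 0.05 to 6 of the 67 flanking genes (8.96%), against a background of 4.24%. In the authors' deposited table these were Slc17a7 (log2 fold change -1.16, q = 3.52e-11), Rcn3 (-0.91, q = 3.65e-05), Emp3 (-0.94, q = 0.000767), Myh14 (0.53, q = 0.00694), Tead2 (-0.74, q = 0.0183) and Gys1 (0.52, q = 0.0455). For HRC variant over nontransgenic, the authors' deposited table gives it to none of the 67, against a background of 0.0775%. Whether the authors modelled sex is not stated. In a fit of these 2 groups alone with no sex term, chosen after seeing the data, edgeR gave an adjusted p under 0.05 to 3 flanking genes (background 1.43%) and DESeq2 to 9 (background 6.12%). The edgeR calls were Slc17a7, Rcn3 and Emp3, a small membrane protein that overlaps Tmem143 and was named after its values were seen. With the sex term kept, the fit of these groups alone called 1, Slc17a7 (log2 fold change -1.14, SE 0.17, adjusted p = 0.0206 by edgeR, background 0.427%).

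**Figure D3:**
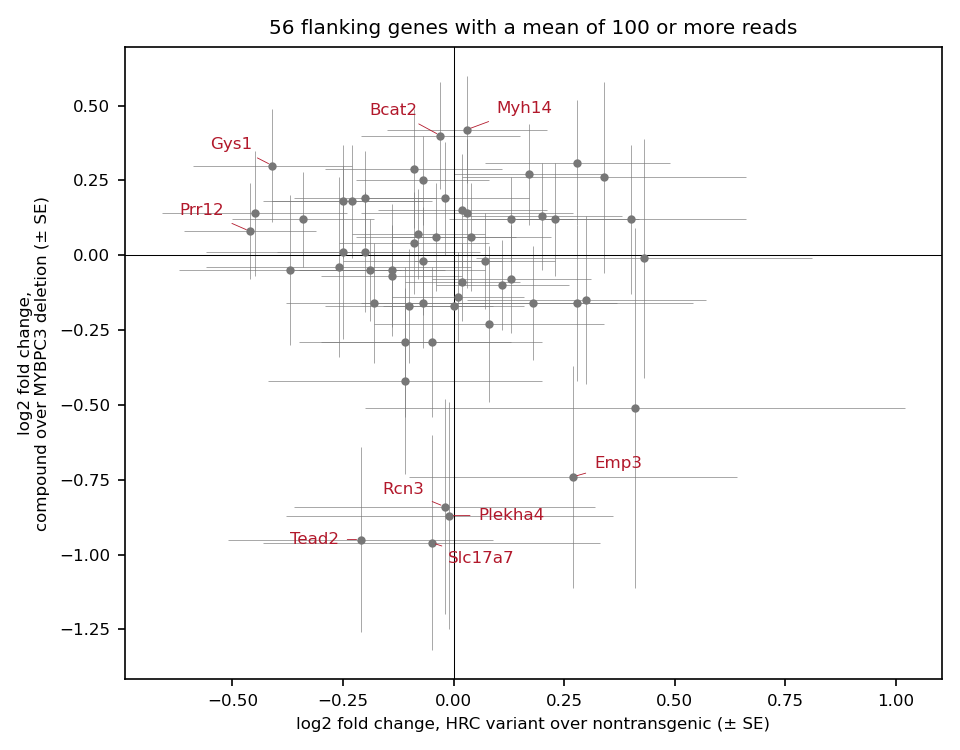
Log2 fold change of the variant without the deletion (HRC variant over nontransgenic, horizontal) and with it (compound over MYBPC3 deletion, vertical), with SE bars, for the 56 flanking genes with a mean of 100 or more reads. Most values lie near 0 on both axes; Tead2, Slc17a7, Rcn3, Plekha4 and Emp3 lie between -0.96 and -0.74 on the vertical axis.

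The difference of the variant's log2 fold change with and without the deletion had an unadjusted p under 0.05 in 5 of the 67 genes (7.46%), against a background of 8.54%, and an adjusted one in none (background 0%). The median difference was 0.02. Prr12 had 0.54 (SE 0.18, adjusted p = 0.545 by edgeR), Ap2a1 0.46 (SE 0.19) and Kcna7 0.59 (SE 0.25), while Emp3 had -1.01 (SE 0.43). The span of Ap2a1 overlaps Fuz on the other strand.

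The proximal promoters of Tead2, Slc17a7 and Rcn3, which are among the genes with lower values in compound hearts, are shown beside that of Snrnp70, a gene near Hrc, so that their base composition can be read. Each is the 250 bases before the RefSeq start in GRCm38.p6, written in the direction of the gene. Capitals mark a CATTCC, the other-strand form of the TEAD element GGAATG. They lie at chr7:45395743-45395992 on the minus strand for Snrnp70, chr7:45215542-45215791 on the plus strand for Tead2, chr7:45163671-45163920 on the plus strand for Slc17a7 and chr7:45092214-45092463 on the minus strand for Rcn3.
Snrnp70: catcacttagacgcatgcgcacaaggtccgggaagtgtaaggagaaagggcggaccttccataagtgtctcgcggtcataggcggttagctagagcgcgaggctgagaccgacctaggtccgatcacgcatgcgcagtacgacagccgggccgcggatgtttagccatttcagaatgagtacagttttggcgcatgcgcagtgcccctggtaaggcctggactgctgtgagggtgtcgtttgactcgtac
Tead2: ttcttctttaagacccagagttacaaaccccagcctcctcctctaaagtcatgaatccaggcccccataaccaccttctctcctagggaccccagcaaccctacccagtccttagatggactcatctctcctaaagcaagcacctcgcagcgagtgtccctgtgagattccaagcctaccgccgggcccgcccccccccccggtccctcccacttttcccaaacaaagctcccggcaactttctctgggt
Slc17a7: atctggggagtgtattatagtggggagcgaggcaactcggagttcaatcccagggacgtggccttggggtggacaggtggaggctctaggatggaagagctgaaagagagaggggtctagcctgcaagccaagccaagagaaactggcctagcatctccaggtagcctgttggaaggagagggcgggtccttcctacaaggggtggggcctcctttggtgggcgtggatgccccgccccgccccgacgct
Rcn3: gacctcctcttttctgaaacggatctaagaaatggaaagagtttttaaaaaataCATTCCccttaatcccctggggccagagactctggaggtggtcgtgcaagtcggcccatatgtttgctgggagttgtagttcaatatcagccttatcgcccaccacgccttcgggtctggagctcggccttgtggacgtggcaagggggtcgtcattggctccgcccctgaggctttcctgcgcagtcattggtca

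The Snrnp70 window holds 21 CG dinucleotides, against 7 in Tead2, 9 in Slc17a7 and 11 in Rcn3. The window of Plekha4, which also had lower values in compound hearts, is not shown and holds 23, so a low number of CG dinucleotides was not shared by these genes. RefSeq promoters were matched for 56 of the 67 genes, and these had a median of 11.5 CG dinucleotides and a GC content of 57.6%. All 10964 matched genes tested had 15 and 59.6%. Searched on both strands, GGAATG was found in 4 of the 56 windows (7.14%), those of Flt3l, Kdelr1, Nomo1 and Rcn3, against 10.7% of all windows. TATAAA was found in 3 (5.36%), against 6.65%, and CACGTG in 3 (5.36%), against 8.3%. None of the 3 motifs was more frequent among the flanking genes than in all windows, and a match is a description of the letters only.

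By role, none of the 7 groups fixed for the region held more than 1 gene with an unadjusted p under 0.05 in carriers against non-carriers, and none held a called gene. The 15 genes of transcription, chromatin and RNA had a median log2 fold change of -0.00, with 7 above and 8 below 0. The 8 metabolic genes had -0.06, with Sphk2, a sphingosine kinase, at 0.22 (SE 0.14) and Ftl1 at -0.08 (SE 0.21). The 9 genes of vesicle traffic, secretion and the nuclear pore had -0.04, with Nucb1, a calcium-binding Golgi protein, at -0.06 (SE 0.12) and Nomo1, an endoplasmic reticulum membrane protein, at -0.00 (SE 0.13). The 6 channel and transporter genes had -0.08, the 7 immune and vascular genes 0.01, the 4 genes of cell death and stress -0.02 and the 3 of DNA repair and replication -0.03. Rasip1, which acts in blood vessel formation, had 0.29 (SE 0.17). Ptov1 had -0.03 (SE 0.14) and Ush1c, a scaffold protein of sensory hair cells, had 0.61 (SE 0.49).

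Judged per library by the mean, 5 of the 6 carriers lay at the low end and HRC variant 1 at the high end. The flanking genes' mean deviation from the mean of all 12 libraries, in log2(CPM + 1), was 0.14, -0.12 and -0.10 in HRC variant libraries and 0.12, 0.06 and -0.00 in nontransgenic libraries. It was -0.06, -0.07 and -0.11 in compound libraries and 0.02, 0.15 and -0.05 in MYBPC3 deletion libraries. All carriers but HRC variant 1 thus lay below every non-carrier by the mean. These deviations are not adjusted for sex, and all carriers are female. By the mean, the only female of each non-carrier group, nontransgenic 3 and MYBPC3 deletion 3, was also the lowest of its group. Sex and the variant can therefore not be told apart in this order of libraries. The median deviation was 0.12, -0.15 and -0.05 in HRC variant libraries and 0.16, -0.03 and 0.01 in nontransgenic libraries. It was -0.05, -0.04 and -0.09 in compound libraries and 0.02, 0.14 and -0.04 in MYBPC3 deletion libraries. By the median, MYBPC3 deletion 3 and compound 2 were thus level, and the order seen by the mean did not hold. The SD of the median between replicates was 0.10, which exceeds most of the medians. HRC variant 1 and nontransgenic 1 were the libraries with the most flanking genes above the mean, 48 and 52 of the 67.

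**Figure D4:**
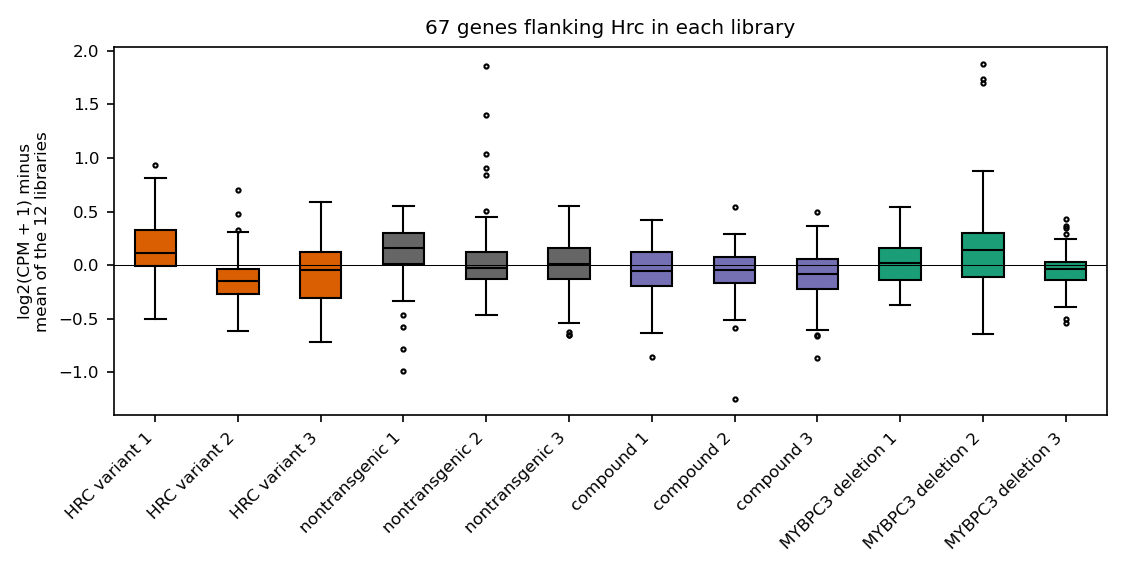
Deviation of each of the 67 flanking genes from its mean over the 12 libraries, in log2(CPM + 1), as a box of quartiles per library with the median as a line and whiskers to 1.5 times the interquartile range. The medians lie between -0.15 (HRC variant 2) and 0.16 (nontransgenic 1), with HRC variant 1 (0.12) above and the other carriers at or below -0.04. MYBPC3 deletion 3, a non-carrier, also lies at -0.04.

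The 4 most variable flanking genes were Spib, Il4i1, Napsa and Cd37. The median coefficient of variation was 17.3% for the flanking genes and 18.6% for all genes tested, and 6 of the 67 had an SD above 0.5 of their mean. Spib, a transcription factor of B cells, had 0.391 to 1.23 CPM in carriers. Among non-carriers it had 6.63 CPM in nontransgenic 2 and 6.72 CPM in MYBPC3 deletion 2, and 0.0596 to 0.947 CPM in the rest. Cd37, a leukocyte tetraspanin at 45233632 to 45239234, had 3.44 to 8.86 CPM in carriers, against 12.7 CPM in nontransgenic 2, 23.3 CPM in MYBPC3 deletion 2 and 4.24 to 8.64 CPM in the other non-carriers. Napsa, an aspartic protease, had 2.98 CPM and 6.22 CPM in these same libraries and 0.298 to 2.28 CPM in all others. Il4i1, an amino acid oxidase of immune cells, had 3.08 CPM and 1.84 CPM in them and at most 0.94 CPM elsewhere. Spib, Napsa and Il4i1 were named after their values were seen.

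The 8 B-cell markers summed to 3.86 to 11 CPM in carriers, against 49.9 CPM in nontransgenic 2, 90.8 CPM in MYBPC3 deletion 2 and 5.02 to 10.9 CPM in the other non-carriers. Among them, the B-cell receptor gene Cd79a had 17.7 CPM in nontransgenic 2 and 42 CPM in MYBPC3 deletion 2, against 1.68 to 3.6 CPM in the rest. All 4 flanking genes were thus highest in the libraries where B-cell markers were highest. The part of immune cells in these values was not tested. Their log2 fold changes, carriers over non-carriers, had wide errors and differed from the plain means. Nontransgenic 2 and MYBPC3 deletion 2 were both male, while all carriers were female. The fitted values hold the sex term and the plain means do not, so the 2 need not match. Cd37 had a fitted value of -0.05 (SE 0.49), beside means of 4.9 CPM in carriers and 9.93 CPM in non-carriers. Spib had a fitted value of 0.55 (SE 1.16), beside 0.749 CPM in carriers and 2.56 CPM in non-carriers.

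**Figure D5:**
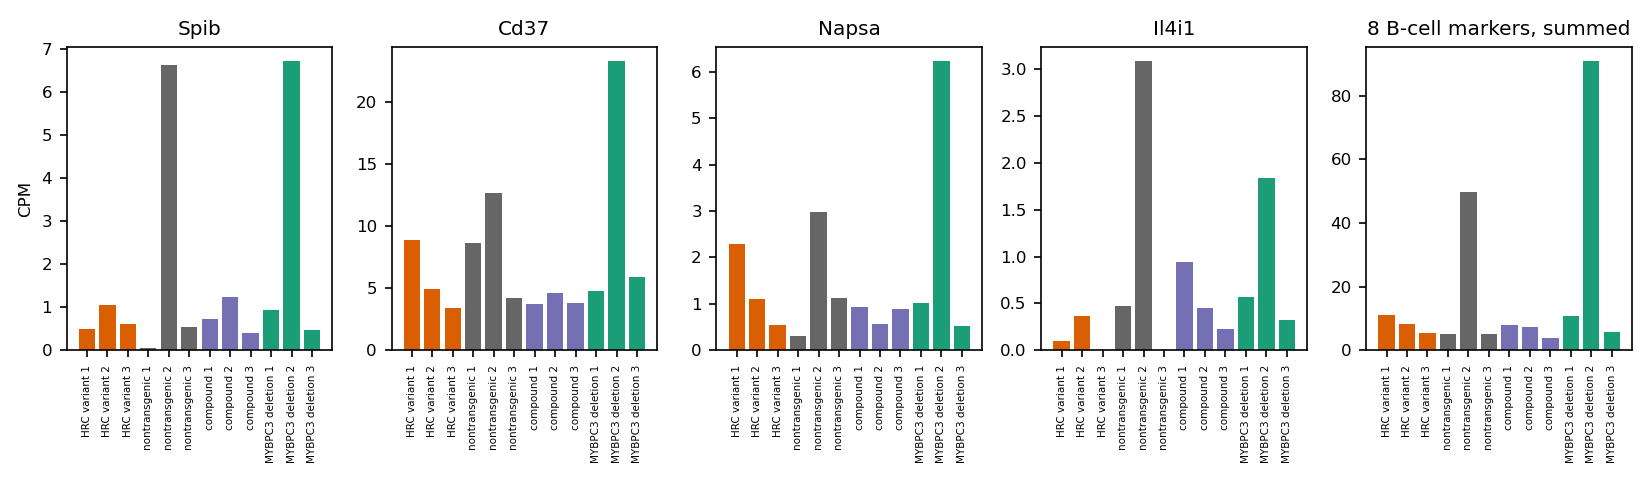
CPM of Spib, Cd37, Napsa and Il4i1 and the summed CPM of 8 B-cell markers in each library (bars from 0). Nontransgenic 2 and MYBPC3 deletion 2 stand above the other libraries in all panels, with 49.9 and 90.8 CPM of B-cell markers.

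As a comparison, the flanking genes were also set out by the MYBPC3 deletion. The mouse Mybpc3 gene lies on another chromosome, while the labels do not state the position of the deletion. No flanking gene passed an adjusted p of 0.05 (background 0%) between deletion carriers (compound and MYBPC3 deletion) and mice without the deletion, and 5 of the 67 (7.46%) had an unadjusted p under 0.05, against a background of 6.18%. The median log2 fold change was -0.03, against -0.02 over all genes. Slc17a7 had -0.88 (SE 0.22, adjusted p = 0.653 by edgeR), Sphk2 -0.38 (SE 0.10), Snrnp70 -0.25 (SE 0.08) and Mamstr, a muscle transcription coactivator named after its values were seen, 0.51 (SE 0.15). Sphk2 overlaps Dbp on the other strand. Slc17a7 was lower in all 3 compound libraries than in every library without the deletion. Its MYBPC3 deletion libraries, at 88.4 to 95.9 CPM, overlapped the libraries without the deletion, at 56.9 to 166 CPM.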

How the data were processed

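Poly-A mRNA of 12 mouse hearts was sequenced, per the labels' protocols. The values were an expected count for each gene in each library (an estimated number of reads) as deposited by the authors, 94.3% of them whole. The same deposited table gives FPKM per gene and library, the authors' log2 fold changes, and p-values and q-values of DESeq2, per the file headers; its 12 TPM columns were not used. GRCm38.p6, HISAT, Bowtie2 and DESeq2 are listed in the submitters' processing notes, without role or version. Of 17380 lines, 1 was empty.

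Counts were rounded and fitted with edgeR 4.0.16 in R 4.3.3 (robust quasi-likelihood model, TMM scaling, group and sex as terms, all 12 libraries, 7 residual degrees of freedom). The low-count filter, at a minimum count of 10, kept 13849 genes and removed 3530; all 67 flanking genes passed. The common biological coefficient of variation was 21.5%. P-values were adjusted by Benjamini-Hochberg over all genes tested, and every p of the report is two-sided. CPM are TMM-scaled. For carriers against non-carriers, a test on simulated data with 13693 genes recovered 61% of 2-fold and 91% of 4-fold changes, with 9 unchanged genes called. The simulated counts held no sex effect and no outlying library, and no change was placed in the genes of lowest CPM. Recovery in the real libraries may therefore be lower.

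The members, the role lists and the tests were chosen with earlier results of these data known. Genes were named by a rule: the 4 nearest to Hrc on each side, those with the smallest p in each comparison (10 for carriers, 5 for each separate pair, 1 for the difference), and the 5 highest by CPM, which gave 22 genes. Alternatives used DESeq2 1.42.0, limma 3.58.1 (voom), other filters and terms, and left out libraries. RefSeq placed all 67 genes on chromosome 7. Of the flanking genes, 35 overlap another gene of the table, 24 of them on the other strand, so their counts are uncertain where strand was not used. Deposited coordinates were used.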

Additional observations from a re-analysis of the deposited data

Results flagged for a closer look

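Each value below lay farther from the 5 others of its set of 6 libraries (carriers or non-carriers) than Dixon's 95% limit allows. In all, 44 sets of 6 were examined for the 22 named genes and 8 passed the limit. Chance flags about 1 in 20 of independent sets that each come from a single normal population. These sets mix genotypes and share libraries, and many of the genes were named for small p-values, so that rate is no measure for them. HRC variant 1 accounted for 5 of them among carriers. It had 108 CPM of Rcn3 (others 38.4 to 47.8), 14.6 CPM of Tead2 (others 6.69 to 7.43), 8.86 CPM of Cd37 (others 3.44 to 4.97) and 734 CPM of Ftl1 (others 399 to 486). It was the lowest carrier for Nomo1, at 176 CPM (others 212 to 232). HRC variant 1 also had the highest summed fibroblast markers of all libraries, at 2211 CPM against 1153 to 1862 CPM in the rest, and the highest atrial markers of the carriers, at 9343 CPM. The part of either in these values was not tested.

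Among non-carriers, nontransgenic 2 had 166 CPM of Slc17a7 (others 88.4 to 118), a value about at the limit. Nontransgenic 1 had 36.5 CPM of Ruvbl2 (others 23.3 to 28.1) and 4.82 CPM of Plekha4 (others 7.14 to 8.31).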

How the results depend on the processing

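In every setting run, no flanking gene passed an adjusted p of 0.05 in carriers against non-carriers or in HRC variant against nontransgenic. In compound against MYBPC3 deletion the count was 0 with all groups in the model and 1 with these groups alone (background 0.427%). With these groups alone and no sex term it was 3 with edgeR (background 1.43%) and 9 with DESeq2 (background 6.12%). That last choice of groups and terms was made after seeing the data. For deletion carriers the count was 1 with DESeq2 (background 0.0939%). Further counts of the fits in females alone and without HRC variant 2 and 3 are not given, since these leave 1 library in at least 1 group.

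Counts at an unadjusted p under 0.05 moved more, and the share over all genes moved with the setting too. It is given as the background where it was counted. For carriers (2 as reported, background 4.92%) they were 10 with no sex term (background 12.2%) and 1 with limma-voom (background 5.47%). With the atrial level in the model they were 0 (background 2.79%). They were 1 at a minimum count of 30 and 1 among genes of 100 or more reads. With single libraries left out they were 0 (nontransgenic 3) to 11 (HRC variant 1, background 10%). They were 1 without MYBPC3 deletion 3, HRC variant 2, HRC variant 3 or compound 1. For HRC variant (3 as reported, background 6.23%) they were 0 with no sex term (background 5.06%) and 1 with these groups alone (background 2.49%). With these groups alone and no sex term they were 0 with edgeR (background 3.27%) and 0 with DESeq2 (background 3.52%). With single libraries left out they were 1 (nontransgenic 3) to 9 (HRC variant 1, background 8.86%). For compound (6 as reported, background 5.73%) they were 15 with no sex term (background 14.5%) and 0 with the atrial level (background 2.27%). With these groups alone and no sex term they were 17 with edgeR (background 18.8%) and 20 with DESeq2 (background 19.6%). Without nontransgenic 1 and MYBPC3 deletion 2 they were 2. With single libraries left out they were 1 (compound 2) to 8. They were 2 without nontransgenic 3 or compound 1, and 3 without nontransgenic 1 or any MYBPC3 deletion library. For the difference (5 as reported, background 8.54%) they were 9 with DESeq2 (background 9.58%) and 2 without nontransgenic 1 and MYBPC3 deletion 2. With single libraries left out they were 2 (compound 3) to 13 (HRC variant 3). They were 3 without nontransgenic 1 or MYBPC3 deletion 2, 8 without nontransgenic 2 or HRC variant 2 and 9 without MYBPC3 deletion 1. For deletion carriers (5 as reported, background 6.18%) they were 4 to 8 with single libraries left out. They were 8 without HRC variant 1 (background 7.88%) and 8 without HRC variant 3.

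The median log2 fold change was 0.09 for HRC variant and -0.13 for the difference without HRC variant 2 and 3. For compound it was -0.12 with no sex term, and -0.13 and -0.11 (edgeR, DESeq2) with these groups alone and no sex term. With single libraries left out it was -0.08 to -0.00 for carriers, -0.08 to 0.05 for HRC variant, -0.08 to 0.04 for compound, -0.09 (MYBPC3 deletion 1) to 0.05 for the difference and -0.07 to 0.02 for deletion carriers. The sign turned for Rcn3 in HRC variant against nontransgenic (0.63 without HRC variant 2 and 3, -0.02 as reported) and for Slc17a7 (0.03, -0.96 as reported) and Plekha4 (0.12, -0.87 as reported) in compound against MYBPC3 deletion with the atrial level in the model. The cause was not tested.

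Pairing by replicate number was not decided, as number 3 is the female of each non-carrier group. In 6 of 18 same-numbered pairs, deviations correlated above 0.1 (range -0.35 to 0.421). With the replicate block, counts at an unadjusted p under 0.05 were 2, 3, 6, 6 and 5 in the same order. Backgrounds were 5.12%, 4.31%, 6.83%, 7.24% and 5.58%, and no flanking gene passed an adjusted p of 0.05. Depth limits the 11 flanking genes under 100 reads (1 interval within 2-fold).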
